A study of Gallus gallus with 16 samples.

Results

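Ribosomal protein genes and translation factor genes were followed in abdominal fat taken at 7 wk from cockerels of the HG and LG lines. The genes are the rows of the count table whose symbol begins with RPL, RPS, MRPL, MRPS, EIF or EEF, without the RPS6K and EIF2AK kinases, and whose larger count is 10 or more. Of 17854 loci in the table, 26 met this rule: 14 RPL genes, 8 RPS genes, 1 mitochondrial ribosomal protein gene (MRPL13), EIF4EBP1, and 2 EEF genes (EEF1A and EEF1B2). The table holds identifiers without symbols, so symbols were taken from the study's list of genes called between these same lines. Only part of that list was read, and the 26 genes are those found in that part. The genes were thus selected on the HG against LG contrast of these same birds, and their ratios are given as a description with no test. Of 29 identifiers that carried such a symbol, RPS13, RPL32 and EIF4E3 had no row and were not analysed here. All 26 others passed the minimum count, and the member nearest to it was MRPL13, with 49.0 counts in HG against 61.6 in LG.

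The HG (high growth) and LG (low growth) lines were bred from 1 Bresse-Pile meat-type population by divergent selection on juvenile and adult body weight. No treatment was compared, and both lines were vaccinated at hatching and fed the same rations. HG and LG birds were kept apart in their first weeks, when LG birds had their pellets crushed, so line and early rearing cannot be told apart. RNA from 4 fed HG cockerels and 4 fed LG cockerels was made into stranded mRNA libraries and sequenced in 2 lanes each, giving 16 samples. Titles and source names give the line of each sample, whereas the label field for the line reads HG for all of them. The table has 1 estimated count per gene for the pooled birds of each line, with the variance of the Cuffdiff model beside it, so no value of a single bird could be examined. In bulk tissue, fewer cells of a type and less RNA per cell cannot be told apart. Abdominal fat also holds vessels, leukocytes and blood.

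A ribosome is built from a large and a small subunit. The RPL proteins belong to the large subunit and the RPS proteins to the small one, and in mammals most of them are made in matched amounts. Their mRNAs, with those of the elongation factors, carry a pyrimidine tract at the start and are translated or held back together under the growth-sensing kinase complex mTORC1. Mitochondria have ribosomes of their own, whose proteins (MRPL and MRPS) are encoded in the nucleus. EEF1A brings the charged tRNA to the ribosome and EEF1B2 recharges EEF1A with GTP. EIF4EBP1 binds the cap-binding factor EIF4E and blocks initiation until mTORC1 phosphorylates it. In fat, insulin is a main activator of mTORC1.

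Column totals were 4421254 estimated counts for HG and 3365950 for LG. The log2 HG/LG ratio (pseudocount of 1) of the median gene was 0.26 over the 10484 genes tested, not 0. Ratios below are given relative to that median gene, and those of the counts as deposited are higher by 0.26. Whether the deposited scale or the median gene is the better zero cannot be told from the table. Across all genes, 2.18% passed (Benjamini-Hochberg adjusted p of 0.05 or less from the deposited variances, and a fold of at least 1.2), 0.992% with higher and 1.19% with lower counts in HG. With the counts as deposited, 2.93% passed.

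None of the 26 genes passed over all genes, where 2.18% of all genes did relative to the median gene and 0.858% did as lower in HG on the deposited scale. The study had listed all 26 as called. Its call used its own Cuffdiff test, whose version the paper does not give, and the same fold minimum of 1.2. Deposited HG/LG was 0.9995 for RPL17L, 1.05 for RPS29, 1.14 for RPS20 and 1.17 for RPL30. Relative to the median gene these genes also lay under 1.2-fold, while the rest of the 26 exceeded it. As deposited, RPL31, RPL8, RPL4, RPL7A, RPL26, RPS23, RPS3A, RPS4 and EEF1B2 lay under 1.2-fold too. The study's call of RPL17L, RPS29, RPS20 and RPL30 thus cannot be rebuilt from the deposited counts on either scale. The test here does not repeat the study's call. Most other listed genes did not pass here either: of the 1338 with a symbol and a test, 106 passed relative to the median gene. Before adjustment, 6 of the 26 had p under 0.05, where 7.51% of all genes did, and with the deposited variance divided by 4, the number of birds, 16 of 26 passed, where 16.1% of all genes did. Of these 16, 15 had lower counts in HG, where 7.9% of all genes passed on that side, and 1, EEF1A, had higher counts. The sources do not say if a variance belongs to 1 library or to a mean. Because the lines' contrast chose the genes, no reading is taken from these counts.

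Relative to the median gene, 25 of the 26 genes had lower counts in HG, and EEF1A had higher counts. A ratio below 0 was found for 50% of all genes by construction. On the deposited scale 22 of the 26 had lower counts in HG, where 24.7% of all genes did, and RPL30, RPS20 and RPS29 turned to higher counts in HG. The median log2 ratio of the 26 genes was -0.48 relative to the median gene and -0.22 as deposited. Summed over the 26 genes, the counts were 19019 in HG and 21571 in LG, which is 0.430% of the HG total and 0.641% of the LG total. The share in HG was thus 0.671 times that in LG. Raw sums differed less than these shares, since the HG column total was the larger.

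**Figure D1:**
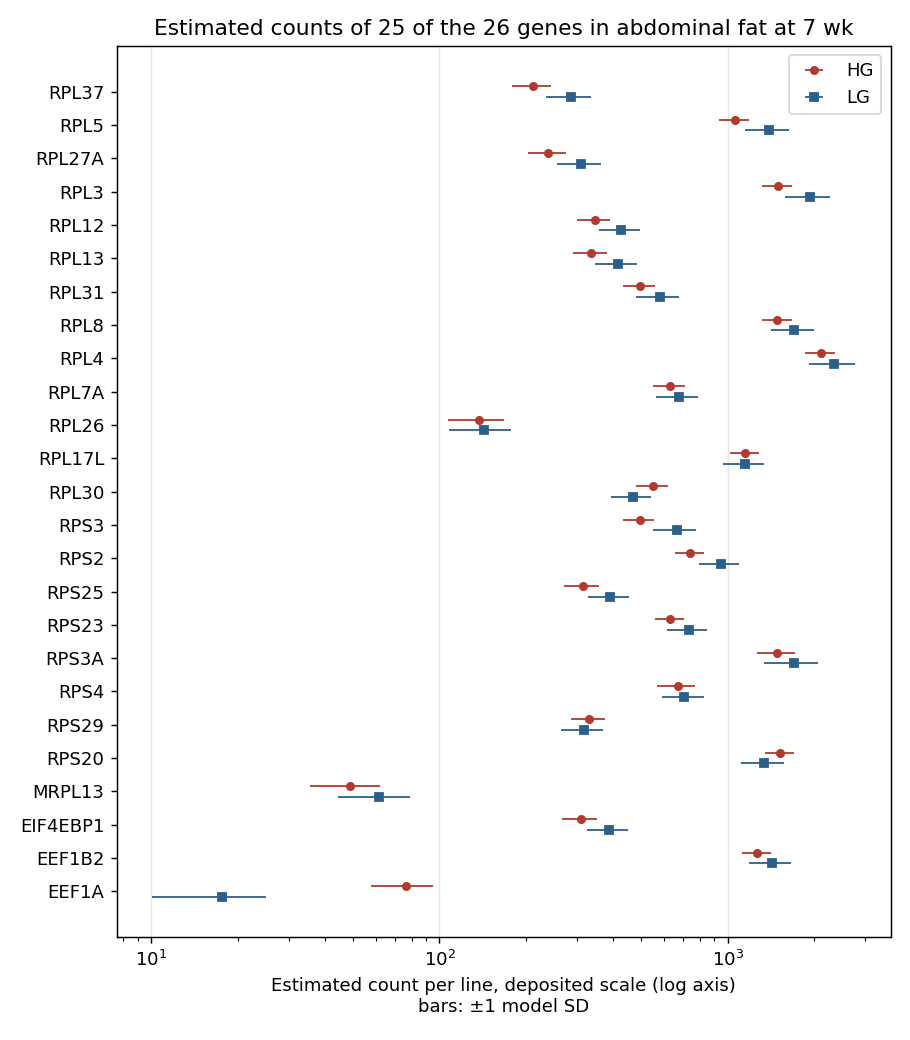
Estimated counts of 25 of the 26 genes in HG (red circles) and LG (blue squares) on a log axis, 1 value per line as deposited, with bars of 1 model SD to either side. RPL37 (212 in HG, 286 in LG) leads the RPL block and RPS3 (495 in HG, 666 in LG) the RPS block, and the bars of each overlap between lines. For EEF1A (76.5 in HG, 17.6 in LG) the bars lie far apart, with HG the higher.

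Among the proteins of the large subunit, the 14 RPL genes had a median log2 ratio of -0.50 relative to the median gene (-0.25 as deposited), with single genes between -0.69 and -0.03. RPL37, a small zinc-binding protein, was counted at 212 in HG against 286 in LG, for a log2 HG/LG of -0.69 (95% model interval -1.35 to -0.02). RPL5, which with RPL11 carries a ribosomal RNA into the particle and in human cells binds MDM2, was counted at 1060 in HG against 1390 in LG, for a log2 HG/LG of -0.65 (95% model interval -1.25 to -0.05). RPL3, which reaches towards the peptidyl transferase centre, was counted at 1498 in HG against 1928 in LG, for a log2 HG/LG of -0.62 (95% model interval -1.22 to -0.02). These were the 3 RPL genes with intervals wholly below the median gene. That held for 3.41% of all genes tested and for 124 of the 1338 other listed genes. The listing used this contrast, so nothing is read from these shares. On the deposited scale the interval of each of the 3 RPL genes included 0.

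RPL27A (238 in HG, 310 in LG) had a log2 ratio of -0.63, between those of RPL5 and RPL3, with an interval that included the median gene, and was followed below RPL3 by RPL12 of the stalk base (345 in HG, 427 in LG, -0.56) and RPL13 (336 in HG, 415 in LG, -0.56). Neighbours in this order differed by less than the standard error of each ratio, whose median over the RPL genes was 0.30 on the log2 scale, so the order within the block is not resolved.

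RPL31, at the mouth of the exit tunnel, was counted at 496 in HG against 580 in LG, for a log2 HG/LG of -0.48. RPL8, a core protein beside the peptidyl transferase centre, was counted at 1489 in HG against 1706 in LG, for a log2 HG/LG of -0.45. RPL4, which lines the exit tunnel and had the largest count of the block, was counted at 2104 in HG against 2345 in LG, for a log2 HG/LG of -0.41. The counts are not divided by gene length, so they were compared between lines and not between genes.

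At the upper end of the block, RPL7A (631 in HG, 676 in LG) had a ratio of -0.36 and RPL26 (137 in HG, 143 in LG) one of -0.31. RPL17L had practically equal counts, 1149.6 in HG and 1150.2 in LG, so that its ratio of -0.26 came from the centring alone. RPL30, which in yeast binds its own transcript, was counted at 550.4 in HG against 469 in LG. Its log2 ratio was -0.03 relative to the median gene (95% model interval -0.61 to 0.56) and 0.23 as deposited. RPL30 was the 1 RPL gene with the higher deposited count in HG.

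In the small subunit, the 8 RPS genes had a median log2 ratio of -0.46 (-0.20 as deposited), 0.05 above that of the RPL genes, a difference that was not tested. RPS3, at the entry of the mRNA channel, was counted at 495 in HG against 666 in LG, for a log2 HG/LG of -0.68 (95% model interval -1.28 to -0.09). RPS2, its neighbour at the channel, was counted at 743 in HG against 945 in LG, for a log2 HG/LG of -0.60 (95% model interval -1.16 to -0.04). These were the 2 RPS genes with intervals wholly below the median gene. That held for 3.41% of all genes tested and for 124 of the 1338 other listed genes, and again nothing is read from these shares. Neither of the 2 RPS intervals stayed below 0 on the deposited scale.

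RPS25, needed by some viral mRNAs that start translation without a cap, was counted at 314 in HG against 390 in LG, for a log2 HG/LG of -0.57. RPS23, a protein of the decoding centre, was counted at 632 in HG against 732 in LG, for a log2 HG/LG of -0.47. For RPS3A the counts were 1487 in HG and 1700 in LG, for a log2 HG/LG of -0.45, and for RPS4 they were 671 in HG and 708 in LG, for a log2 HG/LG of -0.33. All 4 intervals included 0 on both scales.

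RPS29, a small zinc-binding protein, was counted at 331 in HG against 317 in LG, and RPS20 at 1524 in HG against 1342 in LG. Their log2 ratios were -0.19 and -0.07 relative to the median gene, and 0.07 and 0.18 as deposited, so the side on which both genes lay depended on the scale. With RPL30 they were the 3 of 26 genes within 0.2 of the median gene. Of the 1338 other listed genes with a symbol and a test, 42 lay that close (3.14%), against 41.9% of all genes tested. The listing itself used this contrast, so nothing is read from these shares.

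**Figure D2:**
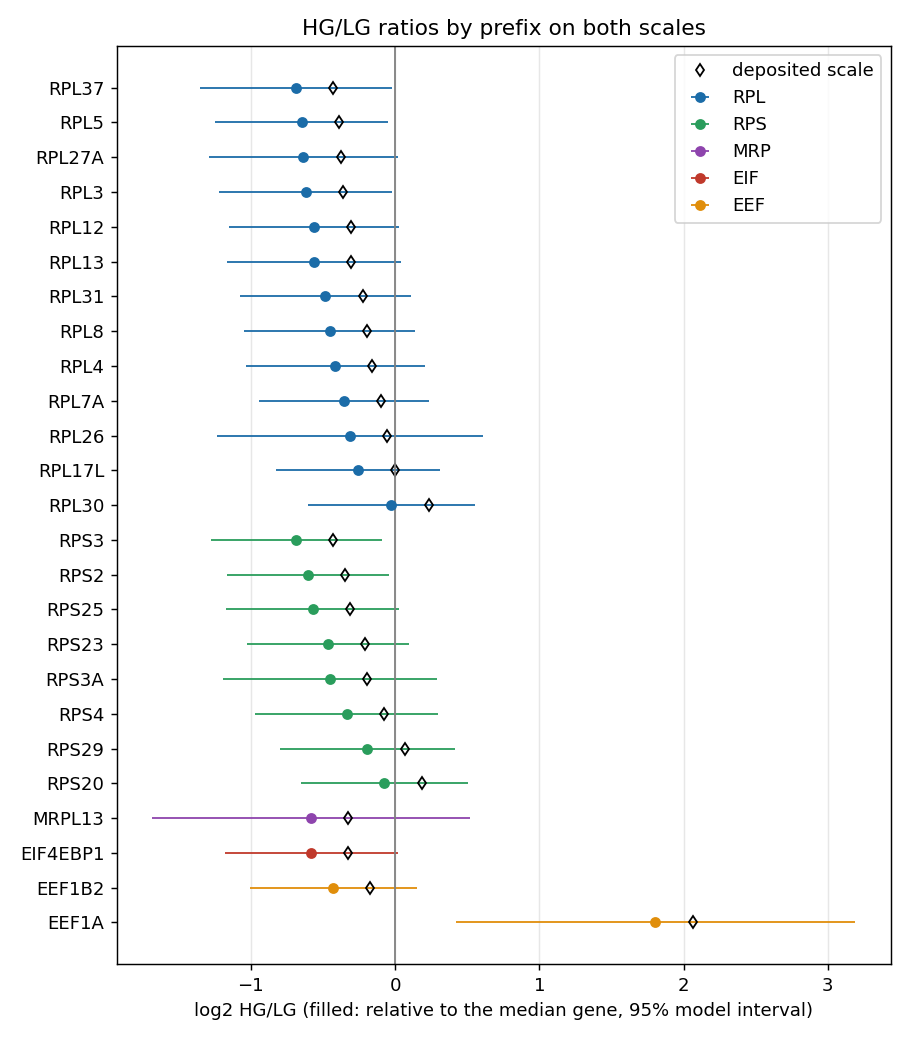
Log2 HG/LG ratio of 25 of the 26 genes, by prefix: filled points are relative to the median gene with 95% model intervals, and open diamonds are the counts as deposited. The 21 RPL and RPS points lie between -0.69 and -0.03, the diamonds of RPL30, RPS20 and RPS29 lie right of 0, and EEF1A stands alone at 1.80.

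The 22 cytosolic ribosomal protein genes thus spanned 0.66 on the log2 scale, where the standard error of a ratio had a median of 0.30. Their quartiles lay at -0.60 and -0.34. In the 4526 tested genes whose mean count was in the same range (140 to 2225), the median was 0.04 and the quartiles were -0.16 and 0.24. The 488 other listed genes with a symbol and a ratio below the median gene had a median of -0.68, further from 0 than the -0.48 of the ribosomal protein genes. As the list was made from these birds, its low values are not independent evidence of a direction.

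**Figure D3:**
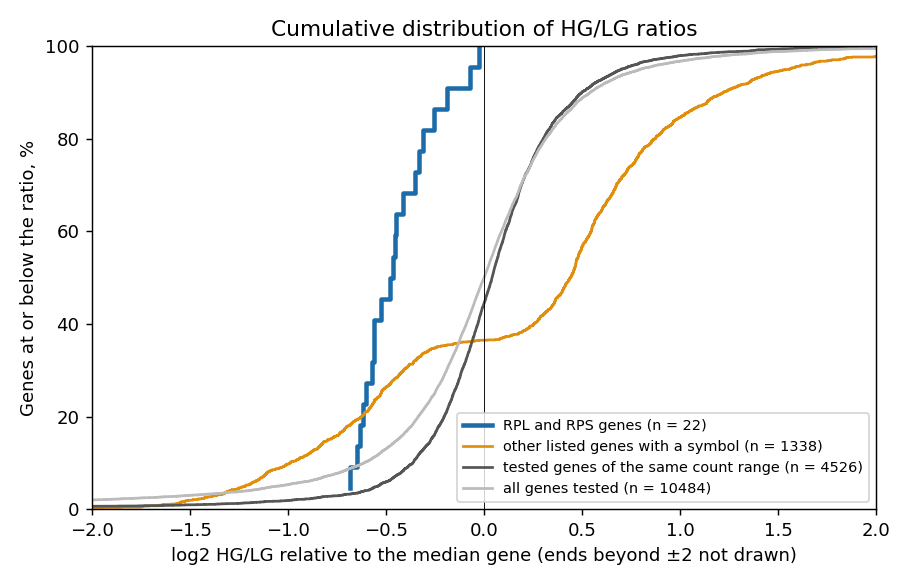
Cumulative percent of genes at or below a log2 HG/LG ratio relative to the median gene, for the 22 RPL and RPS genes, the 1338 other listed genes with a symbol, the 4526 tested genes in the same range of mean count, and all 10484 genes tested. The RPL and RPS curve reaches its end before 0, while the other listed genes are split to both sides with few near 0.

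MRPL13, of the large subunit of the mitochondrial ribosome, was counted at 49.0 in HG against 61.6 in LG. Its log2 ratio was -0.58 relative to the median gene (95% model interval -1.68 to 0.52), a value like that of the cytosolic genes with an interval nearly 2 times as wide. No second mitochondrial ribosomal protein gene had a symbol in the part of the list that was read, so the prefix is represented by 1 gene.

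EIF4EBP1, the brake on cap-dependent initiation, was counted at 309.0 in HG against 387 in LG, for a log2 HG/LG of -0.58 (95% model interval -1.18 to 0.02) and -0.32 as deposited. It is the 1 gene under the EIF prefix, and it encodes an inhibitor of an initiation factor rather than a factor. Its ratio lay below 0 on both scales, as did those of 19 of the 22 RPL and RPS genes.

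The 2 elongation factor genes had ratios of opposite sign. EEF1B2, the exchange factor, was counted at 1265 in HG against 1424 in LG, for a log2 HG/LG of -0.43 (95% model interval -1.01 to 0.15) that lay among those of the ribosomal proteins. EEF1A, the factor that delivers tRNA, was counted at 76.5 in HG against 17.6 in LG, 4.36 times as many in HG as deposited. Its log2 ratio was 1.80 relative to the median gene (95% model interval 0.42 to 3.19) and 2.06 as deposited. It did not pass over all genes. An interval wholly above the median gene was found for 3.6% of all genes and for 295 of the 1338 other listed genes.

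EEF1A is typically among the most abundant mRNAs of a cell, and a count of 17.6 in LG was the lowest of the 26 genes, although counts are not per length. RefSeq (GRCg7b) gives EEF1A as an older symbol of EEF1A1 and also holds EEF1A2, whose protein is nearly identical. How reads shared by such copies were divided is not stated, so which copy this row counts is uncertain. The model SD was 24.2% of the count in HG and 42.6% in LG, the largest LG value of the set.

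The Cuffdiff model gave these genes relative SDs that ran from 11.6% to 27.3% of the count in HG, with a median of 12.6%, and up to 42.6% in LG, with a median of 16.8%. Over all genes tested the medians were 20.2% in HG and 24.6% in LG. All 26 genes had the larger relative SD in LG, as did 90.6% of all genes tested.

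Set against the median of tested genes whose count lay within 10% of theirs, 15 of the 26 genes had a smaller relative SD in HG, and 4 of 26 did in LG. RPS3A and RPS4 were among those with a larger one in both lines. RPS3A had 14.9% in HG (median of like genes 11.8%) and 21.6% in LG (median 17.2%). RPS4 had 14.9% in HG (median 11.7%) and 16.7% in LG (median 15.5%), and in HG its deposited variance was 1.64 times the part assigned to the spread between replicates. RPL26 had a variance 1.40 times that part in HG and 1.33 times in LG. The part of the variance due to uncertain assignment of reads was below 1 squared count in both lines for 25 of the 26 genes.

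**Figure D4:**
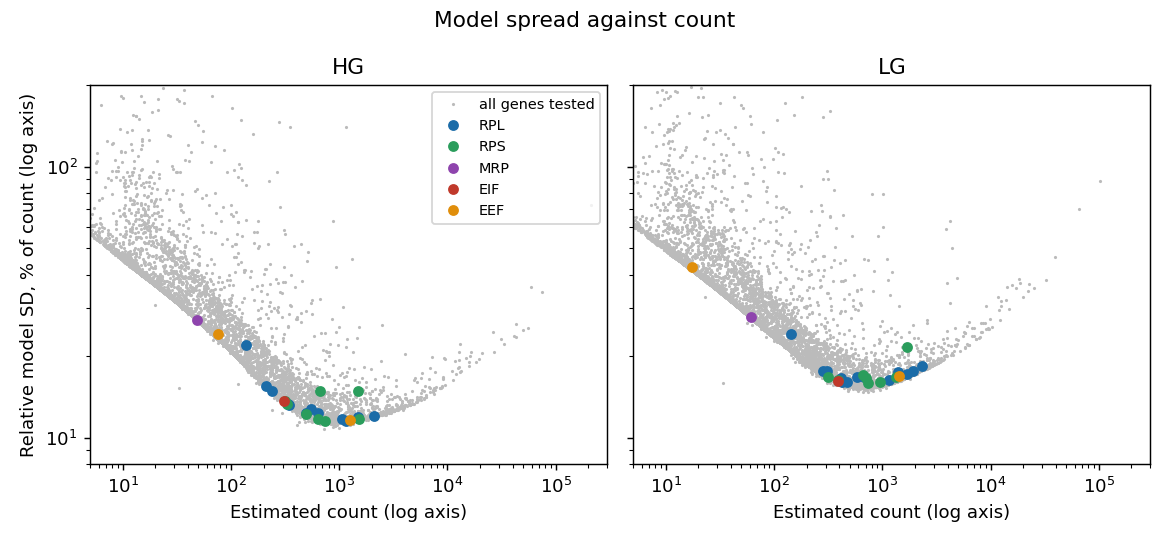
Relative model SD (percent of the count, log axis) against estimated count (log axis) in HG (left) and LG (right), with all tested genes in grey and 25 of the 26 genes coloured by prefix. RPS3A lies above its neighbours at 14.9% in HG and 21.6% in LG.

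A feature that the rule did not use was found in 14 of the 26 genes. In vertebrates the introns of many ribosomal protein genes hold small nucleolar RNAs (snoRNAs), which guide the modification of ribosomal RNA. In the RefSeq annotation of GRCg7b, to which all 26 symbols could be matched, some as older symbols (RPL26 as one of RPL26L1), 14 of the 26 genes (53.8%) had at least 1 annotated snoRNA gene inside their span. Among all 18023 protein-coding genes of that annotation, 90 did (0.499%), although their median span was 11985 bases, against 3603 bases for the 26 genes. Of the 69 protein-coding genes there whose symbol begins with RPL or RPS and a digit, without RPS6K genes, 21 did (30.4%). Of the 22 described here, 13 did (59.1%). RPL4 held 5 snoRNA genes, RPL17L (now RPL17) held 4, and RPL7A and RPS3 held 3 each. EEF1B2 held 2, the 1 gene outside the RPL and RPS prefixes that held any. With EEF1A taken as EEF1A1, the 26 genes lay on 15 chromosomes, and none was the next protein-coding gene to another. This annotation is of a later assembly than the Galgal4 genome that the reads were mapped to, and strand was not compared.

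Other genes of the pathway could be seen only where the same list gave a symbol. Of 30 genes of mTORC1 and cap-binding control, 4 had a row and were tested, and none passed, where 2.18% of all genes did. MTOR, the kinase itself, was counted at 499 in HG against 306 in LG, for a log2 HG/LG of 0.45 (95% model interval -0.14 to 1.03). RPTOR, the subunit that recruits substrates, was counted at 384 in HG against 212 in LG, for a log2 HG/LG of 0.60 (95% model interval -0.03 to 1.23). Both lay above the median gene and EIF4EBP1 below it, with intervals that included it. The list that gave these symbols was made from this contrast, so nothing is read from the sides on which the genes lay. DEPTOR, an inhibitor of the kinase, was counted at 219 in HG against 235 in LG, for a log2 HG/LG of -0.36 (95% model interval -1.02 to 0.30).

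Of 32 genes of ribosome biogenesis, 2 were tested and neither passed, where 2.18% of all genes did. DKC1, the pseudouridine synthase of the H/ACA particles, was counted at 192 in HG against 265 in LG, for a log2 HG/LG of -0.72 (95% model interval -1.39 to -0.06). SBDS, which helps release the large subunit for translation, was counted at 1162 in HG against 701 in LG, for a log2 HG/LG of 0.47 (95% model interval -0.08 to 1.02). None of 20 aminoacyl-tRNA synthetases and none of 19 genes of EIF2 stress control had a row under a symbol. The members of these lists without a symbol may be among the rows tested without one.

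Of the kinases kept out by the rule, RPS6KA was counted at 265 in HG against 431 in LG, for a log2 HG/LG of -0.96 (95% model interval -1.63 to -0.28), and did not pass. RPS6KA5 was counted at 427 in HG against 304 in LG, for a log2 HG/LG of 0.23. Both encode protein kinases, which are no part of the ribosome.

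A further ribosomal protein gene, RPL14, served as 1 of the reference genes of the study's qRT-PCR assays. RPL14 had no symbol in the part of the list that was read, so its row could not be picked out and no count is given. The assays were scaled to the geometric mean of RPL14 and COX7A2L, which the paper chose because they varied little in its microarray and RNA-Seq data. The RPL14 primers are shown here, 5′ to 3′, because the gene belongs to the class described above.
RPL14 forward: ccttcgggaggcatgct
RPL14 reverse: ccactagcgccctgttctg

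Marker genes of the cells that fat can hold were looked at in the same way. Of 12 adipocyte markers, 3 had a row: SCD, which passed as higher in HG, PPARG, and DGAT2, listed at 0 in both lines, and they summed to 27931 counts in HG against 1072 in LG. SCD made up most of the HG sum, with 26156 counts in HG against 162 in LG, while PPARG was counted at 1774 in HG against 910 in LG, for a log2 HG/LG of 0.71, and did not pass. The defining markers ADIPOQ, PLIN1 and FABP4 had no row under a symbol, so the labelled tissue could not be checked on them. Of 12 lymphocyte markers, 2 had a row, CD3E and BLK, with summed 140 counts in HG against 174 in LG and a median log2 ratio of -0.69. Of 12 macrophage markers, 3 had a row, summing to 3014 in HG and 2310 in LG. CTSS and SPI1 lay below the median gene and CSF1R above it. Of 11 endothelial markers, 2 had a row, summing to 4744 in HG and 2741 in LG. CDH5 made up most of that sum (4494 in HG, 2611 in LG), and EGFL7 was counted at 250 in HG against 131 in LG. Of 11 erythrocyte markers, CA2 had a row (229.5 in HG, 454 in LG) and passed as lower in HG relative to the median gene. Of 12 hepatocyte markers, SERPINC1 had one (4.40 in HG, 64.7 in LG). Of 12 skeletal muscle markers, 5 had one, summing to 1319 in HG and 527 in LG. ACTA1 made up most of the muscle sum (1144 in HG, 525.5 in LG). ACTN2 was counted at 67.6 in HG against 1.13 in LG, and TNNI2 at 23.7 against 0.332. TNNC2 was at 0 in both lines and MYBPC1 at 0 in LG. The paper lists ALB, FGA, FGB, FGG, AHSG and APOH among its top RNA-Seq genes higher in LG. These hepatocyte markers had no row under a symbol in the part of the list read, so SERPINC1 does not stand for them. TNNC2 is among the paper's top RNA-Seq genes higher in HG. The paper also reports DGAT2 as higher in HG, by RNA-Seq and by qRT-PCR. The 0 of TNNC2 and of DGAT2 here is thus no sign of absence, and the muscle and adipocyte sums hold no counts of these genes. The part of the marked cell types in the ratios of the translation genes was not tested.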

How the data were processed

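Libraries of 4 HG and 4 LG cockerels (16 samples over 2 lanes) entered 1 table. The deposited estimated counts were made by the authors, per the submitters' processing notes, with Cuffdiff 2.0.2 from TopHat 1.3.3 and Bowtie 0.12.7 alignments, to Galgal4 as the methods state. They are not divided by length, and their scaling between lines is not stated. The model variances beside them were deposited by the authors too.

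Genes whose larger count reached 10, above 0 in both lines and of status OK, entered the test: the log count ratio, centred on its median, over its delta-method standard error, referred to a normal distribution, two-sided, Benjamini-Hochberg adjusted. Intervals are the ratio ± its error at 95%. The test was tried on simulated counts. Tests over birds, leaving out birds or lanes, and the search of promoters for a pyrimidine start were not run. Symbols came from 1993 identifiers of the study's list, of which 1511 had a row and 1420 of these a symbol; only part of that list was read. All genes of the prefixes but 1, which is not reported here singly, are named; in the fixed lists, those called and those with the lowest and highest ratio. The members and lists were chosen with earlier results of these data known. Python 3.11.15, pandas 2.3.3, numpy 2.4.6, scipy 1.17.1 and matplotlib 3.10.9 were used.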

Additional observations from a re-analysis of the deposited data

How the results depend on the processing

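No paired analysis was possible because the table pools the birds of a line; for the same reason no bird or lane could be left out. Dividing the variance by the 4 birds raised the genes called to 1692 (229 in the centred test), 864 higher and 828 lower in HG. These were 16.1% of all genes tested. The divided variance called 13 of 22 RPL and RPS genes and 3 of the MRP (1), EIF (1) and EEF (2) genes. Of the genes tested in the fixed lists, it called 2 of 2 of ribosome biogenesis and 3 of 4 of mTORC1 control. EIF4EBP1 is counted under EIF and again under mTORC1 control. The centred test called 0 of each group. All these genes took their symbols from the list of genes called between the lines, so no reading is taken from these counts. Deposited counts gave 217 genes higher in HG (104 centred), and adding the Poisson variance gave 80 lower in HG (125). Without the 100 genes of the highest count, the 26 genes took 0.633% of the HG total and 0.883% of the LG total, against 0.430% in HG and 0.641% in LG. The other alternatives (column totals, other centring, count and fold minimums, status, pseudocounts) kept every count within 1.5 times and every median within its model error. The median of the 26 genes ran from -0.61 (column totals) to -0.22 (deposited counts). The pyrimidine start could not be searched, as no promoter sequences were used. The deposited counts are pooled by line, so they could not be set against the reads of single birds. By line, the paper gives slightly fewer reads, and a lower percentage of them mapped, for HG than for LG. The column total of the deposited counts was nonetheless the larger in HG. The source of this difference in direction was not tested.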
